A study of Mus musculus with 24 samples.

Results

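Mitotic spindle and kinetochore genes were examined in 8 populations of myeloid cells sorted from mouse colon. The 45 genes are listed by symbol, by role and without a threshold on any value: kinesins of mitosis, centromere (CENP) proteins, the NDC80 and SKA complexes, spindle checkpoint proteins, the chromosomal passenger complex, mitotic kinases and spindle assembly factors, the shugoshins, and proteins of the central spindle and cytokinesis. Each of the 45 was found among the 17301 genes of the deposited expression table. The cells came from the lamina propria (LP) of the colon of C57/BL mice, which the labels call healthy, or from tumours that APC/Min mice, which inherit a mutant allele of the tumour suppressor Apc, formed in the colon. From each tissue 4 populations were sorted: F4/80hi MHCIIhi macrophages, F4/80hi MHCIIlow macrophages, Ly6Chi MHCII- monocytes and Ly6Ghi neutrophils. Each of the 8 groups held 3 libraries of bulk RNA-seq, 24 in all, numbered by donor in the labels. Per the study's methods, dextran sodium sulphate (DSS) in the drinking water hastened the tumours, control C57BL/6J mice received it too at a lower dose, and tissue was pooled from several animals for each independent sort. The methods also isolated the cells differently, with a step that removed the epithelium for LP alone and with unlike digestion and density gradients. Tissue, genotype, DSS dose and cell isolation therefore cannot be told apart.

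Mitosis segregates duplicated chromosomes on the spindle, an array of microtubules that is organised by kinesin motors and by kinases such as Aurora A and Plk1. Microtubules attach to each chromosome at the kinetochore, which is built on centromeric chromatin marked by the histone H3 variant CENP-A and binds microtubules through the NDC80 and SKA complexes. The checkpoint proteins Bub1, BubR1, Mad2 and Mps1 (from Bub1, Bub1b, Mad2l1 and Ttk) delay anaphase until attachment is complete, and the chromosomal passenger complex of Aurora B, INCENP, survivin and borealin (from Aurkb, Incenp, Birc5 and Cdca8) corrects faulty attachments. Most of these genes are transcribed late in the cell cycle, and many carry the cell cycle genes homology region (CHR) and CCAAT boxes near their start. Neutrophils that have left the bone marrow no longer divide, whereas macrophages resident in tissues can divide locally.

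The promoters of the genes were read from RefSeq (GRCm38.p6, from 250 bases before to 50 bases after each annotated start), which gave 44 windows for 39 of the 45 genes. TTTGAA on either strand, or the related palindrome TTCGAA, stood in 70.5% of the genes' windows and in 19.2% of all 32851 windows. CCAAT, searched on both strands, stood in 77.3% of them and in 37.4% of all windows. A CHR sequence and CCAAT occurred together in 59.1% of the genes' windows and in 7.52% of all windows. The motifs may overlap, and a match describes letters only. The lines that follow give 120 bases before and 30 bases from the start, 5′ to 3′ on the coding strand, with the CHR sequences and CCAAT boxes, on either strand, in capitals. They are shown for 3 of the 4 genes that were higher in tumours in both macrophage subsets and have a window (Birc5, Bub1b and Racgap1), for the members with the highest levels (Cenpa and Kif23) and for the gene with the most CCAAT boxes (Hmmr). In this order they lie at chr11:117849117-117849266, plus strand (Birc5), chr2:118598091-118598240, plus strand (Bub1b), chr15:99651627-99651776, minus strand (Racgap1), chr5:30666766-30666915, plus strand (Cenpa), chr9:61946770-61946919, minus strand (Kif23) and chr11:40733408-40733557, minus strand (Hmmr).
Birc5: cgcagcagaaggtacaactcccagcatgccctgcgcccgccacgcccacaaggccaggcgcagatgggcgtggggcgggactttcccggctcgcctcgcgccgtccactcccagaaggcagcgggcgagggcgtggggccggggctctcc
Bub1b: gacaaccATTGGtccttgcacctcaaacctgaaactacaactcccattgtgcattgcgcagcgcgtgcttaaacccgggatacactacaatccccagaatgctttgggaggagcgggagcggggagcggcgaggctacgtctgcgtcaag
Racgap1: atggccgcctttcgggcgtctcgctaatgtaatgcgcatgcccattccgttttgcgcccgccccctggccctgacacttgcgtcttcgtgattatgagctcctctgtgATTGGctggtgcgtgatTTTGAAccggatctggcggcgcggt
Cenpa: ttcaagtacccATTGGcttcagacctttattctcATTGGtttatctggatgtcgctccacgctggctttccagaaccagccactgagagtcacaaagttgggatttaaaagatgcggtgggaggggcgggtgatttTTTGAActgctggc
Kif23: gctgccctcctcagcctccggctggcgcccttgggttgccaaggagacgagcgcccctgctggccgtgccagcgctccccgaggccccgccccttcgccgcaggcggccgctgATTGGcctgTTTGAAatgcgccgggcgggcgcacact
Hmmr: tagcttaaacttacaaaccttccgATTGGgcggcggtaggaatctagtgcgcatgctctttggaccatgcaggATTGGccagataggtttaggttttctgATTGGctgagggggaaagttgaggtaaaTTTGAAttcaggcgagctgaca
The Kif23 and Racgap1 promoters each had 1 CCAAT box within 12 bases before the start and TTTGAA just after it. Cenpa had 2 CCAAT boxes and TTTGAA, and Hmmr had 5 CCAAT boxes in its whole window, 3 of them in the part shown. Bub1b had its 2 CHR sequences outside the part shown, and the Birc5 window held none of the motifs. Among genes that are not members, both motifs were found in 46.2% of windows of other M phase genes, 23.1% of windows of regulators of M phase transcription, 13.9% of windows of DNA replication genes and 9.52% of windows of kinesins of transport.

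Recovered depth was 12.8 M to 41.7 M reads per library (median 26.4 M). The markers of macrophages and of neutrophils followed the labels, and those of monocytes did so in part. RPKM are reads scaled by gene length and by an effective library size. Summed RPKM of the macrophage markers was 4330 to 8110 in macrophage libraries and at most 1300 in the others. Neutrophil markers reached 16400 to 38600 in neutrophils against at most 597 elsewhere. Monocyte markers summed to 808 to 1230 in LP monocytes and to 646 to 805 in LP neutrophils, ranges that nearly touch. Tumour neutrophils, at 912 to 1280, overlapped LP monocytes, while tumour monocytes reached 2630 to 3190. Neutrophil precursor markers (7 genes) summed to 649 to 4040 in LP neutrophils and to 2030 to 6630 in tumour neutrophils. In LP monocytes they summed to 480, 18.1 and 21.4 for donors III, IV and V, and in the other groups to at most 9.81. The part of precursor cells in the levels of the spindle and kinetochore genes was not tested. Other cell types were detected too. Fibroblast markers summed to 7.59 to 62.0 in LP macrophages and to 0.384 to 1.77 in tumour macrophages, and B and plasma cell markers were higher in neutrophils of LP (358 to 1300) than in those of tumours (0.660 to 20.1). Epithelial markers (13 genes) summed to 8.34 to 41.5 in LP macrophages, to 84.3, 40.9 and 10.5 in tumour MHCIIhi macrophages of donors I, V and VII, and to 247, 16.6 and 36.4 in tumour MHCIIlow macrophages of the same donors.

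Most of the spindle and kinetochore genes were detected at low levels in LP cells, with 31 to 41 of them above 3 reads in an LP library, and were higher in tumour macrophages. Of the 45 genes, 42 had their highest group mean in a tumour macrophage group, 39 of them in tumour MHCIIlow macrophages on the log2 RPKM scale. The number of genes at 1 RPKM or more was 5 to 8 in the libraries of LP MHCIIhi macrophages and 8 to 9 in those of LP MHCIIlow macrophages. It was 14, 25 and 28 in tumour MHCIIhi macrophages and 25, 31 and 37 in tumour MHCIIlow macrophages of donors I, V and VII, so neither pair of macrophage groups overlapped. Monocytes and neutrophils stayed in the range of the LP, where monocytes had 6 to 12 such genes (5 to 7 in tumours) and neutrophils 8 to 9 (6 to 9 in tumours). In bulk RNA, more dividing cells in a sort and more message per cell cannot be told apart. By flow cytometry, the study reported a protein marker of proliferation in tumour macrophages of both subsets, unlike those of LP. Its relation to the levels given here was not tested.

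**Figure D1:**
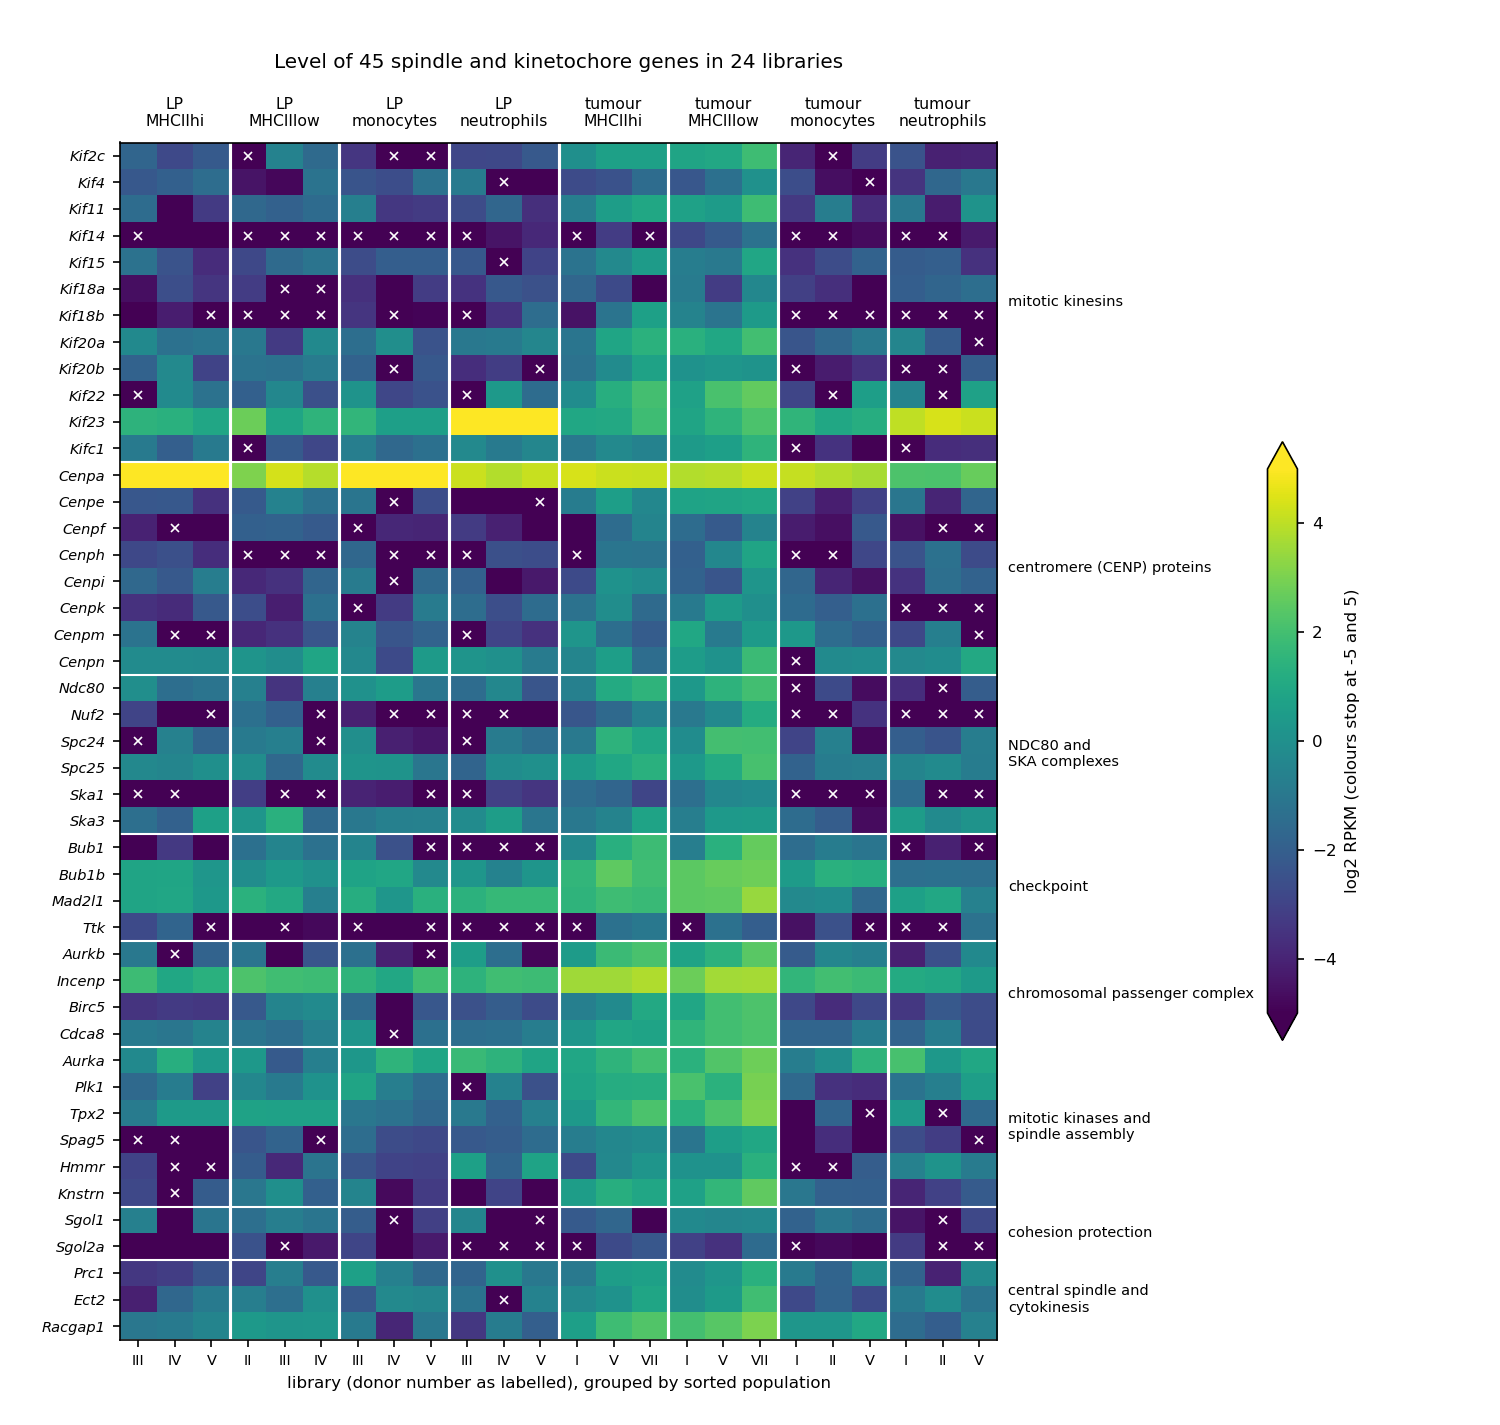
Level of each of the 45 genes (rows, by role) in each of the 24 libraries (columns, by sorted population, labelled by donor), as colour on the log2 RPKM scale. The 6 tumour macrophage columns are the warmest, while Cenpa is high in most columns and Kif23 in the 6 neutrophil columns.

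The median log2 RPKM of the 45 genes gave the same order. It was -2.19 to -1.72 in LP MHCIIhi macrophages, -1.56 to -1.27 in LP MHCIIlow macrophages, -0.77 to 0.77 in tumour MHCIIhi macrophages and 0.32 to 1.83 in tumour MHCIIlow macrophages. Monocytes of LP ranged from -2.98 to -1.02 and those of tumours from -2.84 to -2.07. Neutrophils ranged from -2.21 to -2.04 in LP and from -2.41 to -1.73 in tumours, with overlap in both pairs. Cenpa and Kif23 alone made up much of the summed level in LP cells. Without these 2 genes the summed RPKM of the other 43 was 18.9 ± 0.28 (SD, n = 3) in LP MHCIIhi macrophages and 68.2 ± 22.2 in their tumour counterparts, and 23.9 ± 0.82 in LP MHCIIlow and 107 ± 44.4 in tumour MHCIIlow macrophages. Monocytes had 21 ± 5.54 in LP and 17.3 ± 3.42 in tumours, while neutrophils had 22.3 ± 1.12 in LP and 18.6 ± 2.71 in tumours.

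**Figure D2:**
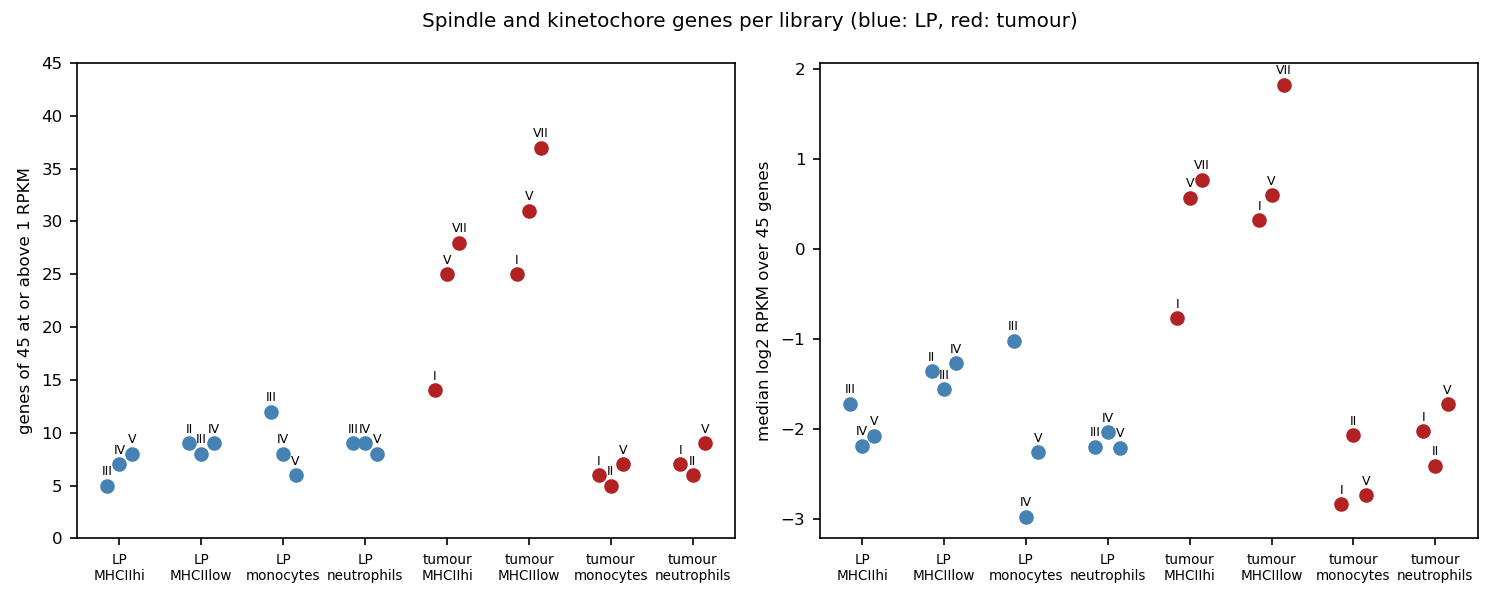
For each library, labelled by donor (blue LP, red tumour), the number of the 45 genes at 1 RPKM or more (left) and the median log2 RPKM over the 45 genes (right). The 6 tumour macrophage libraries hold 14 to 37 such genes, and the other 18 libraries 5 to 12.

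The libraries of tumour macrophages were not alike. The donor VII library of tumour MHCIIlow macrophages was the highest of its group for 39 of the 45 genes, against 31.4% of all genes tested, and the donor I library the lowest for 32, against 33.5%. In tumour MHCIIhi macrophages the donor I library was the lowest for 37 of the 45 genes, against 32.7% of all genes, and donor VII the highest for 27, against 31.7%. The donor I libraries also had the highest epithelial sums of their groups (84.3 and 247). The MHCIIhi library of donor VII and the MHCIIlow library of donor V, with the lowest epithelial sums (10.5 and 16.6), had 28 and 31 of the genes at 1 RPKM or more. Tumour monocytes and neutrophils, with epithelial sums of 130 to 392, had at most 9. Erythroid markers were also higher in tumour macrophages (summed RPKM 0.971 to 8.73) than in LP macrophages (0.136 to 0.604), and were higher still in tumour neutrophils (9.19 to 16.8), whereas T and NK cell markers were lower in tumour MHCIIhi (48.3 to 57.8 against 78.5 to 89.5) and tumour MHCIIlow macrophages (20.6 to 28.4 against 35.8 to 58.2). Dendritic cell markers were lower in tumours too, at 5.05 to 14.7 against 51.3 to 73.5 in MHCIIhi and 3.49 to 5.41 against 9.29 to 16.9 in MHCIIlow macrophages. Neutrophil markers were lower in tumour MHCIIhi macrophages (118 to 238 against 508 to 597) and higher in tumour MHCIIlow macrophages (117 to 167 against 36.8 to 78.4). B and plasma cell markers summed to 6.79, 6.34 and 69.2 in tumour MHCIIlow macrophages of donors I, V and VII. In tumour MHCIIhi macrophages of these donors they summed to 6.63, 15.3 and 9.24. Neutrophil precursor markers summed to 0.160, 0.784 and 7.28 in the MHCIIlow libraries and to 5.40, 0.308 and 0.0502 in the MHCIIhi libraries. The part of these cell types in the levels of the spindle and kinetochore genes was not tested.

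Tumour and LP were compared with limma on log2 RPKM, with a call at a Benjamini-Hochberg adjusted p under 0.05. The filter on low values (mean of 1 RPKM in at least 1 group) was passed by 32 of the 45 genes, and 21 of these passed it only through a tumour macrophage group, so those had to differ between groups. Kif4, Kif14, Kif15, Kif18a, Kif18b, Cenpf, Cenph, Cenpi, Cenpk, Ska1, Ttk, Sgol1 and Sgol2a did not pass. The study's methods dropped genes averaging under 10 reads per sample in every population, so the deposited table may itself be selected. Kif14, Cenph and Ska1 may have entered it only through tumour macrophages, as Ska1 had at most 12 reads in any other library. With no filter added to this, and all 45 genes in the fit, 10 were called higher in tumour than in LP MHCIIhi macrophages. Of all 17301 genes, 5.70% were called higher there. In MHCIIlow macrophages 13 of 45 were called higher (8.66% of all genes), and over both subsets 25 of 45 (12.4%). The log2 fold change was above 0 for 40 of 45 genes in MHCIIhi macrophages, with a median of 2.14 against -0.00 over all genes, and for 44 of 45 in MHCIIlow macrophages, with a median of 2.61 against 0.00. All 3 tumour libraries lay above all 3 LP libraries for 23 of 45 genes in MHCIIhi macrophages (17.4% of all genes) and for 34 of 45 in MHCIIlow macrophages (18.6% of all genes).

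After the filter, 10 of the 32 genes tested were called higher in tumour MHCIIhi macrophages (8.01% of 12878 genes) and 1 lower (11.5%). In MHCIIlow macrophages 8 were called higher (11.5% of genes) and none lower, and over both subsets 20 were called higher (16.3%) and 1 lower (17.6%). These counts inherit the selection by the filter. Incenp, Bub1b, Birc5 and Racgap1 were called higher in each subset on its own. Incenp was past the threshold in all 17 alternative fits of either subset, Bub1b in 15 (MHCIIhi) and 17 (MHCIIlow) of 17, and Birc5 in 16 and 11 of 16. Racgap1 was past it in 12 and 11 of 17. The genes without such a call in either subset, but called over both, were Aurkb, Cenpm, Plk1, Kif2c, Nuf2 and Spc24. Genes of every role except the shugoshins, which were not tested, were among those called over both subsets.

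**Figure D3:**
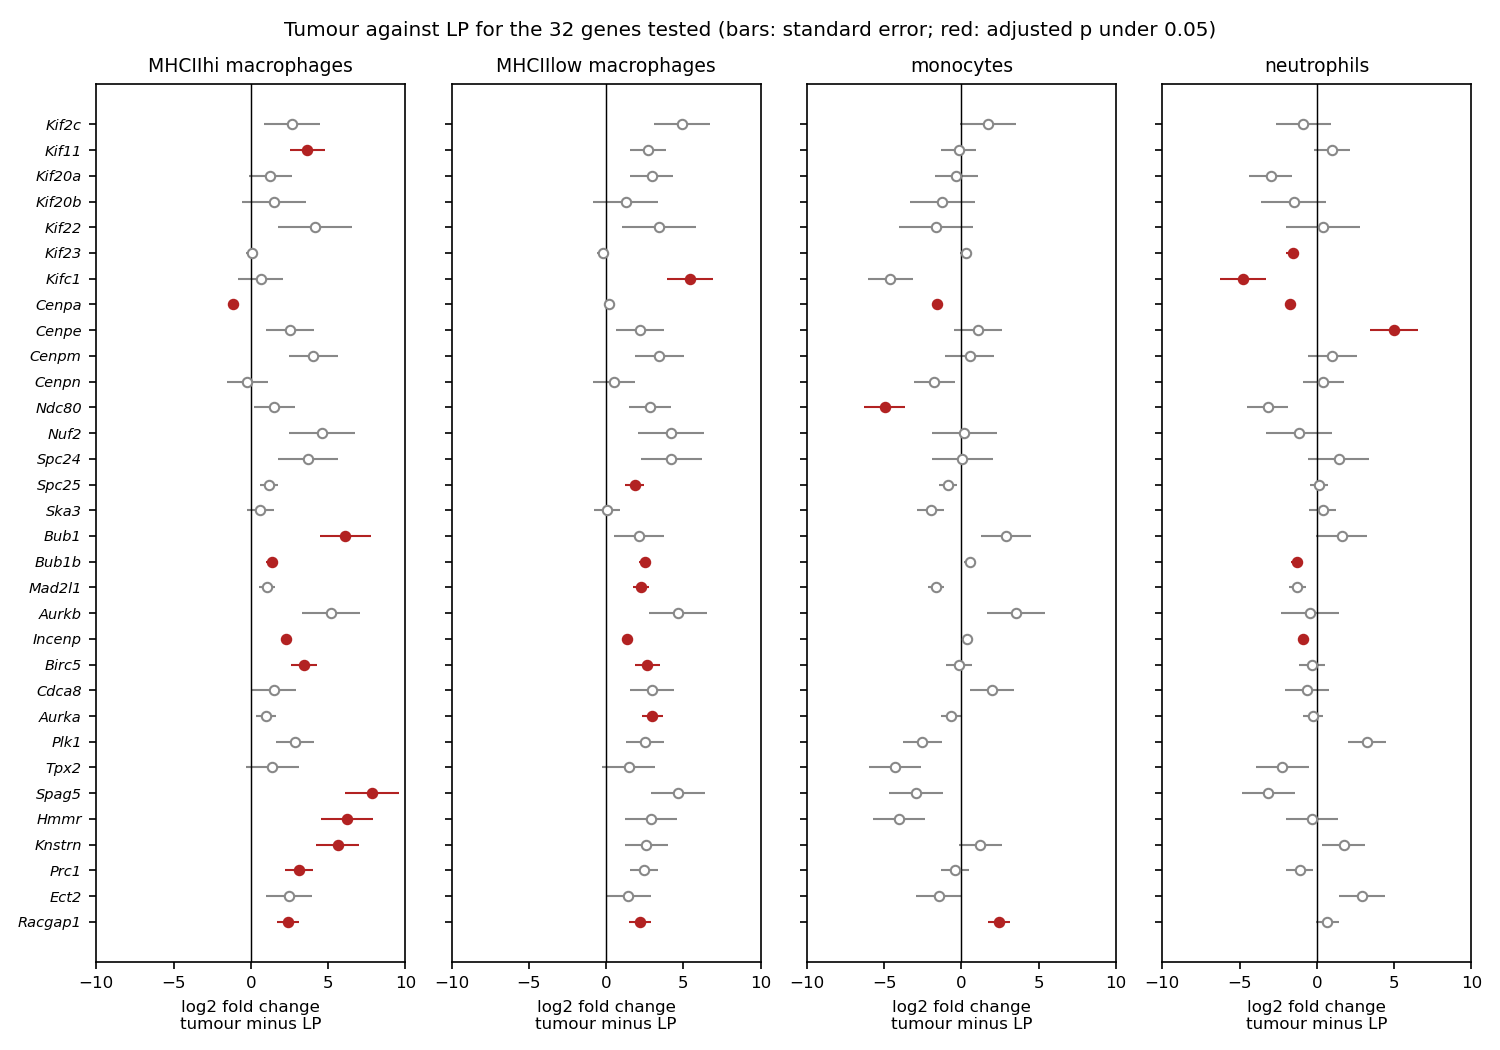
Log2 fold change of tumour against LP with its standard error (bars) for the 32 genes that passed the filter, in the 2 macrophage subsets, monocytes and neutrophils; red points have an adjusted p under 0.05. In the macrophage panels nearly all points lie right of 0, with 10 and 8 called higher, whereas monocytes and neutrophils have 1 called higher each.

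In the chromosomal passenger complex, Incenp, the scaffold that binds and activates Aurora B, rose most clearly. Its log2 RPKM was 1.85, 0.95 and 1.35 in LP MHCIIhi macrophages (donors III, IV and V) and 3.56, 3.58 and 3.82 in tumour MHCIIhi macrophages (donors I, V and VII). It was 2.20, 1.93 and 1.86 in LP MHCIIlow macrophages (donors II, III and IV) and 2.76, 3.63 and 3.66 in tumour MHCIIlow macrophages (donors I, V and VII). The tumour libraries were above the LP libraries in both subsets, and the 12 monocyte and neutrophil libraries lay between 0.46 and 1.98. The log2 fold change was 2.27 ± 0.29 (SE, adjusted p = 1.18e-05) in MHCIIhi and 1.35 ± 0.29 (adjusted p = 0.00184) in MHCIIlow macrophages. Incenp lies on chromosome 19 (GRCm38 chr19:9872296-9899551, minus strand).

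Birc5, which encodes survivin, another subunit of the complex, had log2 RPKM of -3.50, -3.31 and -3.38 in LP MHCIIhi macrophages and of -0.68, -0.20 and 1.04 in their tumour counterparts. In MHCIIlow macrophages it was -2.22, -0.49 and -0.21 in LP and 0.90, 1.99 and 2.22 in tumours. Neither pair overlapped, and the log2 fold changes were 3.45 ± 0.83 (adjusted p = 0.00517) and 2.67 ± 0.83 (adjusted p = 0.0226). Cdca8, which encodes borealin, was measured at -0.87, -1.09 and -0.51 in LP and 0.27, 0.92 and 0.80 in tumour MHCIIhi macrophages, and at -1.10, -1.40 and -0.66 in LP and 1.56, 1.97 and 2.17 in tumour MHCIIlow macrophages. The libraries of Cdca8 did not overlap either, yet its log2 fold change over both subsets, 2.22 ± 1.00, did not pass the test (adjusted p = 0.0946), and its widest group was LP monocytes (0.23, -9.19 and -1.30), of which 1 library had no read of it. Aurkb, the kinase of the complex, was called over both subsets (4.93 ± 1.32, adjusted p = 0.00653), with no read in 1 LP MHCIIhi library. Cdca8 and Prc1 were among cell-cycle genes that the study itself displayed from these samples. All genes of the list were read from the same libraries and chosen with earlier results known, so their direction is not independent evidence.

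Among checkpoint genes, Bub1b, the kinase-like inhibitor of the anaphase-promoting complex, was at 0.85, 0.87 and 0.27 log2 RPKM in LP and at 1.57, 2.53 and 1.95 in tumour MHCIIhi macrophages. In MHCIIlow macrophages it was at -0.11, 0.40 and 0.07 in LP and at 2.47, 2.69 and 2.79 in tumours. The log2 fold change was 1.35 ± 0.38 (adjusted p = 0.0154) in MHCIIhi and 2.53 ± 0.38 (adjusted p = 5.56e-05) in MHCIIlow macrophages, with no overlap in either. Mad2l1, whose product binds Cdc20 at unattached kinetochores, was at 0.83, 0.91 and 0.32 in LP and 1.51, 1.90 and 1.77 in tumour MHCIIhi macrophages, where the log2 fold change of 1.04 ± 0.53 did not pass the test (adjusted p = 0.191). In MHCIIlow macrophages Mad2l1 rose from 1.38, 1.02 and -0.69 to 2.49, 2.53 and 3.44 (log2 fold change 2.25 ± 0.53, adjusted p = 0.00351). Bub1, the kinase that brings checkpoint proteins to the kinetochore, was called in MHCIIhi macrophages (6.12 ± 1.64, adjusted p = 0.0112), and its tumour effect did not differ between the subsets past the threshold. Bub1 had 2, 20 and 2 reads in the LP MHCIIhi libraries, and its log2 fold change there ran from 1.56 to 7.86 over 16 alternatives.

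Of the mitotic kinases, Aurka, which matures the spindle poles, was at -0.27, 1.28 and 0.41 log2 RPKM in LP and 0.93, 1.50 and 1.97 in tumour MHCIIhi macrophages, groups that overlapped. In MHCIIlow macrophages it rose from 0.32, -2.16 and -0.67 to 1.37, 2.30 and 2.81 (log2 fold change 2.99 ± 0.66, adjusted p = 0.00219). Plk1, a kinase that acts from mitotic entry to cytokinesis, was at -1.58, -0.80 and -3.06 in LP and 0.79, 1.19 and 1.23 in tumour MHCIIhi macrophages, and at -0.38, -0.86 and 0.08 against 2.13, 1.37 and 2.93 in MHCIIlow macrophages. It was called over both subsets together (2.70 ± 0.88, adjusted p = 0.0218), and 10.1% of its 51-base stretches also occur in other genes. Spag5, a spindle protein that joins kinetochores and centrosomes, had no read in 2 LP MHCIIhi libraries and 2 reads in the other, against 424 reads in the 3 tumour libraries together. The ratio of its read rates was 253 (exact 95% interval 69.7 to 2098, counting error only). In MHCIIlow macrophages Spag5 was at -2.36, -1.83 and -9.31 in LP, the last with no read, and at -1.13, 0.60 and 0.94 in tumours, a log2 fold change of 4.64 ± 1.74 that missed the threshold (adjusted p = 0.0613). Knstrn, its partner at kinetochores (5.63 ± 1.40, adjusted p = 0.00698), and Hmmr, a microtubule-binding spindle assembly factor (6.21 ± 1.69, adjusted p = 0.0127), were called in MHCIIhi macrophages. Hmmr had 28, 0 and 0 reads in the LP libraries and 22, 190 and 181 in the tumour libraries. Its log2 fold change ran from 0.66 to 8.30 over 16 alternatives, of which 10 passed the threshold.

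At the central spindle, Racgap1, the GTPase-activating protein of centralspindlin, was at -1.02, -0.90 and -0.50 log2 RPKM in LP and 0.65, 1.89 and 2.28 in tumour MHCIIhi macrophages. It was at 0.36, 0.22 and 0.25 in LP and 2.00, 2.40 and 3.04 in tumour MHCIIlow macrophages, again without overlap. The log2 fold changes were 2.41 ± 0.73 (adjusted p = 0.0237, up to 0.191 in the alternatives) and 2.20 ± 0.73 (adjusted p = 0.0342, up to 0.356), both highest with a fixed donor block. Prc1, which bundles antiparallel microtubules, was at -3.39, -3.18 and -2.42 in LP and -0.94, 0.58 and 0.69 in tumour MHCIIhi macrophages (log2 fold change 3.10 ± 0.90, adjusted p = 0.0183). In MHCIIlow macrophages Prc1 was at -2.91, -0.74 and -2.22 in LP and -0.19, 0.25 and 1.36 in tumours (2.43 ± 0.90, adjusted p = 0.0570). Of the 51-base stretches of Prc1, 9.7% also occur in other genes. Ect2, the exchange factor that Racgap1 recruits for cytokinesis, was called in neither subset.

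In the microtubule-binding complexes of the kinetochore, Spc25, a subunit of the NDC80 complex, was at -0.32, -0.46 and -0.01 log2 RPKM in LP and 0.46, 0.94 and 1.33 in tumour MHCIIhi macrophages. It was at -0.08, -1.63 and -0.17 in LP and 0.42, 1.12 and 2.09 in tumour MHCIIlow macrophages, where it was called (1.84 ± 0.59, adjusted p = 0.0285, past the threshold in 11 of 16 alternatives). Nuf2 (4.42 ± 1.51, adjusted p = 0.0289) and Spc24 (3.96 ± 1.39, adjusted p = 0.0330), subunits of the same complex, were called over both subsets. Each had LP macrophage libraries with no read, so these sizes depend on the reads added before the log. Ska3, of the SKA complex that stabilises attachment, overlapped between tissues, at -1.36, -1.88 and 0.68 in LP and -0.99, -0.53 and 0.79 in tumour MHCIIhi macrophages, and at 0.21, 1.36 and -1.60 against -0.73, 0.38 and 0.46 in MHCIIlow macrophages. Its log2 fold change over both subsets was 0.33 ± 0.61 (adjusted p = 0.728).

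Among the kinesins, Kif11, which slides spindle poles apart, was called in MHCIIhi macrophages (3.66 ± 1.15, adjusted p = 0.0296), a call that 10 of 16 alternatives kept and that was lost without the LP library of donor IV (adjusted p = 0.164). Kifc1, a minus-end-directed motor that focuses spindle poles, was at -0.88, -1.98 and -0.90 log2 RPKM in LP and -0.98, -0.29 and -0.58 in tumour MHCIIhi macrophages, with overlap. In MHCIIlow macrophages it was at -8.59 (no read), -2.18 and -2.89 in LP and at 0.43, 0.64 and 1.50 in tumours (5.41 ± 1.48, adjusted p = 0.0106). The value of Kifc1 is uncertain, since 39.1% of its 51-base stretches also occur in other genes. Kif20a, a motor of cytokinesis, was at -0.27, -1.27 and -1.11 in LP and -1.11, 0.87 and 1.39 in tumour MHCIIhi macrophages, and at -1.01, -3.32 and -0.26 in LP and 1.33, 0.95 and 1.97 in tumour MHCIIlow macrophages. Only the second pair did not overlap, and neither passed the test (adjusted p = 0.604 and 0.141). Kif2c, a microtubule depolymerase (3.80 ± 1.27, adjusted p = 0.0255), was called over both subsets, with no read in the LP MHCIIlow library of donor II.

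The remaining roles gave few calls. Cenpm, a CENP protein of the inner kinetochore, was called over both subsets (3.74 ± 1.12, adjusted p = 0.0132), whereas Cenpn, which recognises CENP-A nucleosomes, was at -0.18, -0.16 and -0.20 log2 RPKM in LP and -0.46, 0.61 and -1.42 in tumour MHCIIhi macrophages, and at 0.18, -0.11 and 0.87 against 0.54, 0.11 and 1.83 in MHCIIlow macrophages. Both pairs of Cenpn overlapped, as did those of Cenpf and Cenpi, while Cenph and Cenpm separated only in MHCIIlow macrophages. Cenpm had 21, 0 and 0 reads in LP MHCIIhi macrophages, and its log2 fold change ran from 0.72 to 4.72 over the alternatives. In both subsets all tumour libraries of Cenpe and Cenpk lay above all LP libraries. Cenpe was at -2.28, -2.23 and -3.59 in LP and -0.81, 0.59 and -0.36 in tumour MHCIIhi macrophages. Of the shugoshin genes, which protect cohesion at centromeres, Sgol1 was at -1.36, -0.71 and -1.11 in LP and at -0.26, -0.41 and -0.34 in tumour MHCIIlow macrophages, and at -0.64, -5.36 and -1.11 against -2.17, -1.71 and -5.62 in MHCIIhi macrophages. Sgol2a stayed below -1.50 in all but 1 of the 24 libraries, in which it was at that value, and its exons overlap another gene over 35.0% of their length. The other genes tested and called in no comparison of tumour with LP macrophages were Kif20b, Kif22, Tpx2, Ect2, Ska3, Kif20a, Kif23, Cenpn, Cenpe, Cdca8 and Ndc80.

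Cenpa and Kif23 differed from the rest of the list. Cenpa had the highest mean level of the 45 genes (4.15 log2 RPKM over the 24 libraries). Its level was 5.47, 5.62 and 5.36 in LP monocytes and 5.61, 5.26 and 5.26 in LP MHCIIhi macrophages, 2 groups that overlapped. Tumour MHCIIhi macrophages (4.38, 4.18 and 4.16), LP neutrophils (4.18, 3.85 and 4.15), tumour MHCIIlow macrophages (3.84, 3.91 and 4.21), tumour monocytes (4.14, 3.87 and 3.68) and LP MHCIIlow macrophages (3.08, 4.37 and 3.89) followed, each overlapping the next. Tumour neutrophils (2.19, 2.16 and 2.68) were below all other groups. Cenpa was lower in tumours than in LP in MHCIIhi macrophages (log2 fold change -1.13 ± 0.23, adjusted p = 0.00158), monocytes (-1.59 ± 0.23, adjusted p = 2.07e-04) and neutrophils (-1.72 ± 0.23, adjusted p = 1.62e-05), while in MHCIIlow macrophages it was 0.20 ± 0.23 (adjusted p = 0.596). Over both macrophage subsets the log2 fold change was -0.46 ± 0.17 (adjusted p = 0.0352), and it was not called without the donor I tumour libraries.

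Kif23, the motor subunit of centralspindlin and thus the partner of Racgap1, was a neutrophil gene in these data. It was at 5.98, 5.60 and 5.74 log2 RPKM in LP neutrophils and at 4.04, 4.38 and 4.18 in tumour neutrophils. The other 18 libraries lay between 0.64 and 2.75, below every neutrophil library. Tumour neutrophils were lower than LP neutrophils (-1.57 ± 0.40, adjusted p = 0.00543), and in macrophages the log2 fold change was 0.06 ± 0.40 (MHCIIhi) and -0.22 ± 0.40 (MHCIIlow). Racgap1 in LP neutrophils was at -3.38, -0.79 and -1.99. The deposited values rest on a gene length of 2503 bases for Cenpa and 3423 for Kif23, and the exons annotated here span 5860 and 7901 bases. Such lengths differed for 20 of the 45 genes, which bears on levels between genes but not on differences between groups.

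**Figure D4:**
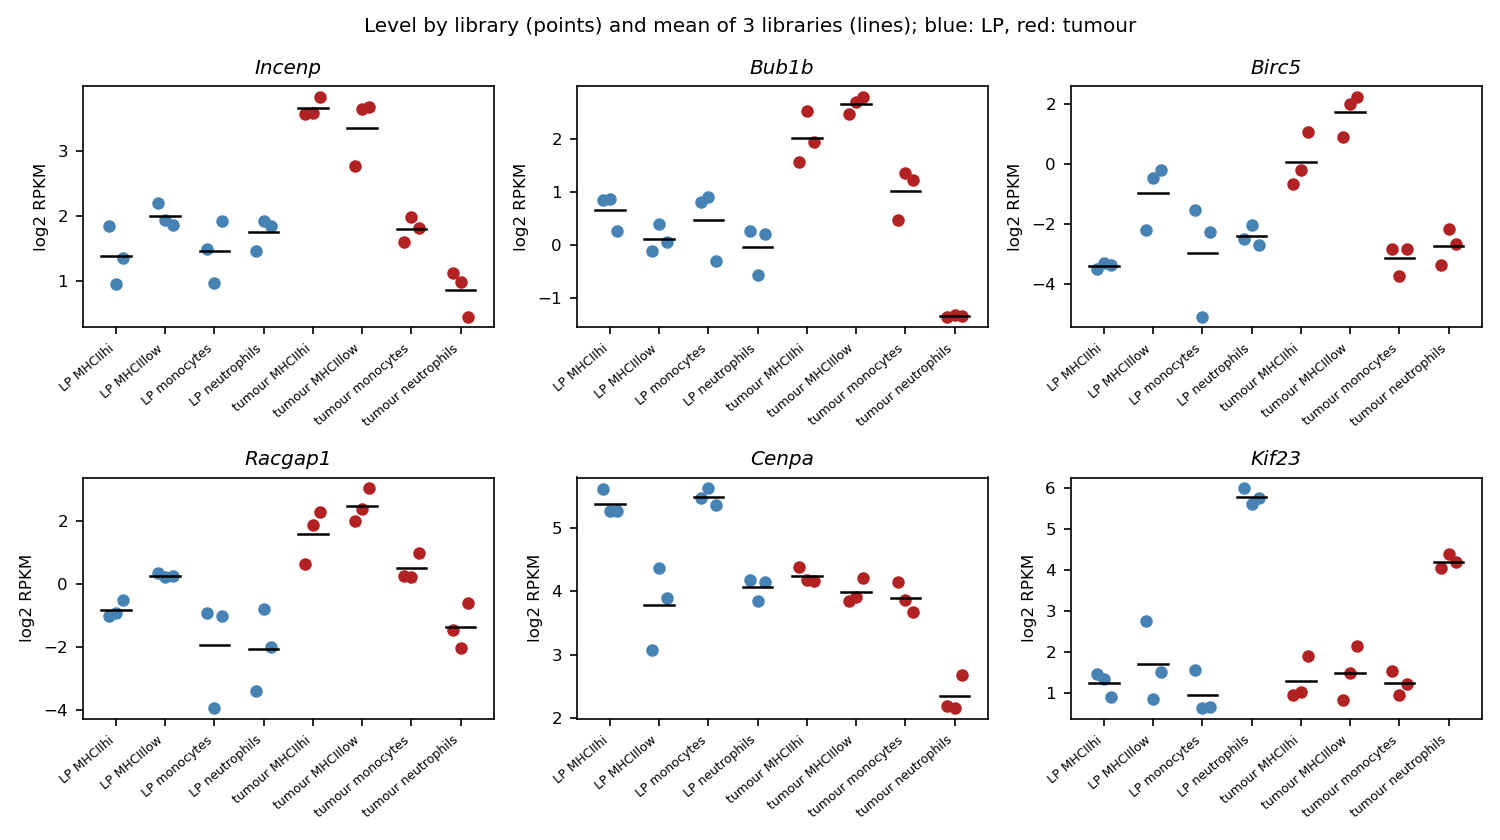
Log2 RPKM of 6 genes in each library (points) with the mean of the 3 libraries of a group (lines), LP in blue and tumour in red. Incenp, Bub1b, Birc5 and Racgap1 are highest in the tumour macrophage groups, Cenpa is highest in LP monocytes and LP MHCIIhi macrophages, and Kif23 in neutrophils.

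In monocytes and neutrophils the genes did not show the macrophage pattern. In monocytes the log2 fold change of tumour against LP was above 0 for 19 of 45 genes and below 0 for 26 (median -0.35 against -0.01 over all genes), and tumour libraries lay below all LP libraries for 9 (12.8% of all genes). Racgap1 was the 1 gene called higher (4.86% of genes), from -0.90, -3.93 and -1.0 to 0.27, 0.24 and 0.99 (2.44 ± 0.73, adjusted p = 0.0401). Cenpa and Ndc80 were the 2 called lower (4.43%). Ndc80, which gives its complex its name, was at 0.07, 0.52 and -1.06 in LP monocytes and at -7.96 (no read), -2.75 and -4.68 in tumour monocytes (-4.97 ± 1.33, adjusted p = 0.0211). Racgap1 was past the threshold in 10 of 16 alternatives and Ndc80 in 9 of 15. B and plasma cell markers were lower in tumour monocytes (0.192 to 4.68 against 157 to 575 in LP), as were fibroblast markers (0.860 to 1.02 against 14.3 to 29.2), and their part in these results was not tested.

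In neutrophils the sign was positive for 20 of 45 genes and negative for 25 (median -0.33 against -0.09), and tumour libraries lay below all LP libraries for 8 (18.0% of all genes). One gene, Cenpe, a kinesin of the kinetochore, was called higher (13.1% of genes), on 68 reads in tumour against 4 in LP neutrophils (ratio of rates 35.3, exact 95% interval 13.2 to 133, counting error only), and was past the threshold in 10 of 15 alternatives. The 5 called lower, of 32 genes tested (19.0% of all genes), were Cenpa, Kif23, Bub1b, Incenp and Kifc1. Neither this count nor that of genes below all LP libraries exceeded the share over all genes. Bub1b fell from 0.26, -0.55 and 0.22 to -1.34, -1.31 and -1.33 (-1.30 ± 0.38, adjusted p = 0.0129), and Incenp from 1.47, 1.92 and 1.85 to 1.13, 0.99 and 0.46 (-0.88 ± 0.29, adjusted p = 0.0258). These calls passed in 10 of 16 alternatives for Bub1b (adjusted p up to 0.201, with voom) and in 9 of 16 for Incenp (up to 0.316, with voom). Kifc1 had 146 reads in LP and 4 in tumour neutrophils, 17.6-fold lower in rate (6.72 to 65.3). The lower B and plasma cell markers of tumour neutrophils (given above) moved alongside, and their part in these results was not tested.

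The difference between cell types was tested as an interaction. With no filter, the tumour effect was larger in macrophages (both subsets) than in monocytes for 12 of 45 genes (2.51% of all genes) and larger than in neutrophils for 14 (10.7%), and smaller for none in either. After the filter, which favours genes high in tumour macrophages, it was larger for 10 of the 32 genes tested (3.55% of genes) and for 12 (14.5%). These comparisons share the macrophage libraries and those above. A larger effect in macrophages is not a rise in macrophages alone. Of the genes called after the filter, all but Incenp had a lower mean in tumour than in LP monocytes. All genes called against neutrophils had a lower mean in tumour than in LP neutrophils. Mad2l1 differed by 3.29 ± 0.65 from monocytes (adjusted p = 0.00226) and by 2.90 ± 0.65 from neutrophils (adjusted p = 0.00252). Its level was 1.24, 0.26 and 1.36 in monocytes of LP against -0.28, -0.15 and -1.65 in those of tumours, and 1.43, 1.70 and 1.70 in neutrophils of LP against 0.68, 1.01 and -0.61 in those of tumours. Incenp differed by 1.48 ± 0.36 (adjusted p = 0.0104) and 2.69 ± 0.36 (adjusted p = 1.69e-05). Spag5, Kifc1, Aurka, Cenpa and Ndc80 were called in both as well, Hmmr, Plk1 and Spc25 against monocytes, and Bub1b, Birc5, Prc1, Kif23 and Kif20a against neutrophils. Most alternatives lost the calls of Aurka (past the threshold in 12 of 28 against monocytes and 11 of 28 against neutrophils) and Spc25 (12 of 28).

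Macrophages and monocytes were also compared within a tissue. In LP none of the 32 genes tested was called higher in macrophages and 2 were called lower (17.0% of genes), Cenpa (-0.90 ± 0.20, adjusted p = 0.00196) and Spag5 (-4.07 ± 1.51, adjusted p = 0.0482, past the threshold in 7 of 18 alternatives); with donor as a random block within tissue 4 genes were called. In tumours 20 of all 45 genes were called higher with no filter (13.9% of all genes). After the filter, which 21 of the 32 genes passed only through tumour macrophages, 18 were called higher (16.8% of genes) and none lower, with the lowest adjusted p for Incenp (1.70 ± 0.25, adjusted p = 1.88e-05), Mad2l1 (2.97 ± 0.46, adjusted p = 2.83e-05) and Birc5 (4.02 ± 0.71, adjusted p = 1.44e-04). Of all 45 genes, 24 had every tumour macrophage library above every tumour monocyte library (16.8% of all genes).

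The macrophage subsets were compared within each tissue. Between tumour MHCIIlow and tumour MHCIIhi macrophages no gene of the list was called by limma in either direction (0.567% of genes in each), none had an unadjusted p under 0.05, and none was called with voom on recovered reads or with either donor block, while 3 were called higher on the log2(RPKM + 1) scale. The log2 fold change was nevertheless above 0 for 41 of 45 genes, with a median of 0.80 against 0.00 over all genes, and the MHCIIlow libraries lay above the MHCIIhi libraries for 9 (7.16% of all genes): Kif2c, Kif14, Kifc1, Cenpe, Ska1, Mad2l1, Cdca8, Plk1 and Sgol1. Both tumour subsets came from donors I, V and VII, and within each donor the MHCIIlow library had more genes at 1 RPKM or more (25 against 14, 31 against 25 and 37 against 28) and a higher median log2 RPKM (0.32 against -0.77, 0.60 against 0.57 and 1.83 against 0.77). Between LP MHCIIlow and LP MHCIIhi macrophages none was called higher (2.13%) and 1, Cenpa, lower (5.57%; -1.60 ± 0.23, adjusted p = 2.04e-04). The tumour effect differed between subsets for 1 gene (1.13% of genes), again Cenpa, by 1.34 ± 0.33 (adjusted p = 0.0457), and this call was lost in 11 of 12 fits that left out 1 library.

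Other cell cycle genes were counted from fixed lists. Of 55 other M phase genes tested, 13 were called higher and 2 lower in tumour MHCIIhi macrophages, 17 and 1 in tumour MHCIIlow macrophages, 1 and 2 in tumour monocytes and 4 and 5 in tumour neutrophils. The shares of all genes are those given above. None is given for genes called lower in MHCIIlow macrophages, so those counts have no share beside them. Those with the lowest adjusted p over both macrophage subsets were Ncapg2, a condensin subunit (1.64 ± 0.17), Pmf1, a subunit of the kinetochore's MIS12 complex (1.43 ± 0.23), and Ckap2l, a spindle protein (1.18 ± 0.22). Of 33 DNA replication genes, 3 were called higher and 1 lower in MHCIIhi and 9 and 1 in MHCIIlow macrophages, led by Rrm1, the large subunit of ribonucleotide reductase (1.70 ± 0.30), Lig1, the replicative DNA ligase (2.47 ± 0.44), and Rfc5, a subunit of the clamp loader (1.19 ± 0.22). Of 15 kinesins of transport 1 was called higher in each macrophage subset, Kif21b (1.79 ± 0.23 over both), none was called lower in MHCIIhi and 2 in MHCIIlow macrophages, and Kif5b, a heavy chain of conventional kinesin, fell by 0.50 ± 0.08 over both. Of 18 regulators of M phase transcription 2 were called higher and 2 lower in MHCIIhi and 3 and 1 in MHCIIlow macrophages. Nfyb, a subunit of the factor that binds CCAAT boxes, was lower (-1.51 ± 0.16, adjusted p = 3.00e-07 over both), and the pocket protein genes Rb1 (1.18 ± 0.16) and Rbl2 (1.15 ± 0.19) were higher.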

How the data were processed

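The deposited table held log2 RPKM of 17301 genes in 24 libraries. Per the labels and the study's methods, the authors made modified SMARTSeq v2 libraries without molecular identifiers, used STAR 2.3 for alignment of paired reads (GRCm38/mm10) and featureCounts 1.5 with GENCODE genes, with no stated use of strand, and named edgeR among their tools. The deposited log2 values gave whole reads (within 0.01 reads, with 0.25 reads added before the log) for 100% of 415224 values, hence the depths and read numbers given. A gene with no read therefore has a strongly negative log2 value set by that addition. The library sizes that the deposited values imply differ from the counted reads. They were 0.466 times the counted reads in tumour neutrophils of donor II and 1.507 times in tumour MHCIIlow macrophages of donor VII, the lowest and highest ratios.

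Group means of the 8 groups were fitted to the deposited log2 RPKM by limma 3.58.1 with trended variance in R 4.3.3, over 12878 genes with a mean of at least 1 RPKM in at least 1 group, with Benjamini-Hochberg adjustment within each of 12 comparisons. No pseudocount was added to the main values. The fit was tested on simulated data, in 1 comparison. The changes were placed in genes with more reads than many of the 45 had in LP, so it does not cover those. Genes, roles and lists were chosen with earlier results of these data known. All 45 genes were named. Single values were given for the 2 of each role with the highest mean and the up to 10 called in most comparisons, and other genes were named when called, at most 15 per comparison. Values of Cenpe were added after its libraries were seen. Of the other lists the 3 with the lowest adjusted p were named; Kif1b, the third transport kinesin, was -0.99 ± 0.19. Coordinates came from GENCODE and promoters from RefSeq, both GRCm38. Of values of 1 to 20 reads 65.1% were even, since mates could be counted separately, so counting intervals are too narrow. The study's methods give the 3 libraries of a group as independent experiments on pooled tissue, so p-values measure the spread between pools, not between mice. Donor numbers were checked for pairing: 29 pairs of libraries of a tissue with the same number correlated at r of -0.0661 to 0.255 (median 0.0169). Among the 45 genes, however, the donor I tumour library was the lowest of its group for 37 (MHCIIhi) and 32 (MHCIIlow). The main fit over both subsets counted the MHCIIhi and MHCIIlow libraries of a donor as independent.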

Additional observations from a re-analysis of the deposited data

Results flagged for a closer look

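Results are given here because the tumour effect (log2 fold change of tumour against LP) differed between cell types or subsets by an interaction test in limma, adjusted over 12878 genes. Cenpa differed between MHCIIlow and MHCIIhi macrophages by 1.34 (adjusted p = 0.0457, and 0.00578 to 0.143 over the alternatives, past the threshold in 7 of 23).

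Against monocytes, the effect in macrophages was larger for Spag5 by 9.20, Hmmr by 8.58, Kifc1 by 7.62, Ndc80 by 7.14, Plk1 by 5.23, Mad2l1 by 3.29, Aurka by 2.67, Spc25 by 2.38, Incenp by 1.48 and Cenpa by 1.12. Over the alternatives Aurka and Spc25 were past the threshold in 12 of 28 each (adjusted p up to 0.147 and 0.137), Plk1 in 20 of 28, Hmmr in 26 of 28 and Cenpa in 27 of 29, and the other 5 genes in all. In monocytes the mean log2 RPKM was lower in tumours than in LP for all the genes named except Incenp. Ndc80 was at a mean of -0.16 in LP and -5.13 in tumour monocytes and was not called in macrophages. For Cenpa the difference means a smaller fall in macrophages than in monocytes. The values above 5 involve libraries with few or no reads and depend on the 0.25 reads added before the log.

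Against neutrophils, it was larger for Spag5 by 9.38, Kifc1 by 7.81, Ndc80 by 5.35, Kif20a by 5.10, Prc1 by 3.88, Birc5 by 3.39, Bub1b by 3.24, Mad2l1 by 2.90, Incenp by 2.69, Aurka by 2.24, Kif23 by 1.49 and Cenpa by 1.25. Over the alternatives Aurka was past the threshold in 11 of 28 (adjusted p up to 0.136), Kif20a in 19 of 28, Kif23 in 20 of 29, Ndc80 in 25, Birc5 in 26 and Prc1 in 27 of 28 and Cenpa in 28 of 29, and the other 5 genes in all. In neutrophils the mean log2 RPKM was lower in tumours than in LP for all the genes named. For Kif23 and Cenpa the log2 fold change over both macrophage subsets was -0.08 and -0.46. The call of Kif20a was lost without the tumour neutrophil library of donor V, which had no read of it (adjusted p = 0.0879 in limma). Of the 51-base stretches of Kifc1, Kif20a and Prc1, 39.1%, 25.2% and 9.7% also occur in other genes, so their reads may be partly shared.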

How the results depend on the processing

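Counts of called genes of the 32 tested depended on scale, filter and block, in some comparisons also on single libraries, and no direction reversed. The share of all genes called under each alternative is not given here, so the counts describe the list alone. For MHCIIhi macrophages (11 called) the count was 4 with at least 5 RPKM, 7 with the donor number as a fixed replicate block, which treats it as shared across tissues, and 18 with voom. For MHCIIlow macrophages (8) it was 28 with log2(RPKM + 1), 24 with log2(RPKM + 0.1), 13 with no filter, 4 with 5 RPKM, 13 with quantile normalization, 5 with the fixed block and 22 with voom. Over both subsets (21) it was 5 with 5 RPKM and 8 with the fixed block. For monocytes (3) it was 5 with the 0.1 pseudocount and 1 with the compared groups alone; for neutrophils (6) it was 2 with the compared groups alone and 3 with voom. Between tumour subsets (0) it was 3 with the pseudocount of 1. Between LP subsets (1) it was 2 with 0.1, quantile normalization or voom and 0 with the compared groups alone. The subset difference of the tumour effect (1) was 2 with either pseudocount or voom, and 0 with no filter, median centring, the compared groups alone, the fixed block or the donor I tumour macrophages left out, an alternative chosen after seeing the data. Macrophages minus monocytes (10) gave 21 and 17 with pseudocounts of 1 and 0.1, 3 with 5 RPKM and 5 with the fixed block, and macrophages minus neutrophils (12) gave 20, with a pseudocount of 1, 5 with 5 RPKM and 6 with the fixed block. LP macrophages minus monocytes (2) gave 1 with a pseudocount of 1 or no filter and 4 with quantile normalization, either replicate block or voom; the tumour counterpart (18) gave 5 with 5 RPKM. The random block within tissue changed no other count by over 1.5 times. The lower counts at 5 RPKM follow from fewer genes tested; other causes were not tested.

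Leaving out 1 library gave 7 to 11 calls in MHCIIhi macrophages (7 without LP donor IV or tumour donor V or VII), 5 to 9 in MHCIIlow (5 without tumour donor V or VII), 16 to 21 over both, 1 to 4 in monocytes (1 without tumour donor I), 5 to 7 in neutrophils, 0 to 0 between tumour subsets, 1 to 2 between LP subsets (2 without MHCIIhi donor III or MHCIIlow donor IV), 0 to 1 for the subset difference (0 in 11 of 12 fits), 7 to 11 and 9 to 12 for macrophages against monocytes and neutrophils, 1 to 5 between LP macrophages and monocytes (5 without monocyte donor III, 1 without donor IV of MHCIIhi, MHCIIlow or monocytes) and 12 to 19 in tumours. Without the donor I tumour macrophages 16 genes were called over both subsets. Of single genes under the alternatives, 1568 results kept their side of the threshold and 208 lost it. Low read numbers limit the LP values of most of these genes.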
